A study of Mus musculus with 6 samples.

Results

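The genes described here are annexins and 2 of their S100 partners in mouse embryonic stem (ES) cells that overexpressed Prdm14. Members were all probes that the platform annotation gives to 9 symbols: Anxa2, Anxa3, Anxa4, Anxa5, Anxa6, Anxa7, Anxa11, S100a10 and S100a11. This gave 9 probes of 8 genes among 45281 probes on the array. Anxa3 had 2 probes, each other gene had 1, and Anxa7 was named by no probe here and has no value. The annotation gave 1 symbol to only 13778 of the 45281 probes. A gene named by no probe, here or below, may therefore still have probes on the array. All 9 probes passed the filter on dim probes and are among the 14604 probes tested. Of all 13778 probes with 1 symbol 12679 passed it too, and these name 8529 genes. The family was selected on the measured values themselves: it was chosen by the lower annexin signals on the overexpression arrays in this same comparison, so its values are given as a description and support nothing on their own. The study raised Prdm14, a PR domain regulator of germ cell specification and pluripotency, to ask whether a gain of Prdm14 lowers the heterogeneity of ES cells grown in serum. It hybridised total RNA of 3 samples with Prdm14 overexpression and 3 with control vector, each to its own array. All were of 129P2 background, and the study derived its overexpressing lines from a Rex1-GFPd2 reporter line. Per the array labels replicates came from consecutive passages, and these labels name no line or clone for an array, so the spread is that between passages, and a difference between the lines cannot be told apart from an effect of Prdm14.

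Annexins are cytosolic proteins that bind acidic phospholipids of membranes when calcium rises, through a conserved core that faces the membrane. Their variable N-terminal tails carry partner sites, several of which bind small EF hand proteins of the S100 family. Through these complexes annexins bridge membranes with each other and with the actin cytoskeleton, and they are known for roles in membrane repair, vesicle traffic and exocytosis.

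Promoter windows from RefSeq (GRCm38.p6, 250 bases before to 50 after the start) were at hand for 6 of the 9 symbols, Anxa2, Anxa4, Anxa5, Anxa7, Anxa11 and S100a11. Shown 5′ to 3′ are Anxa5, which had one of the deepest decreases below, and Anxa2 and S100a11, whose differences were small. Capitals mark matches on either strand to the AP-1 motif TGANTCA, the GC box GGGCGG and the TATA box TATAAA. They lie at chr3:36475838-36476137 on the minus strand (Anxa5), chr9:69453433-69453732 on the plus strand (Anxa2) and chr3:93520246-93520545 on the plus strand (S100a11).
Anxa5: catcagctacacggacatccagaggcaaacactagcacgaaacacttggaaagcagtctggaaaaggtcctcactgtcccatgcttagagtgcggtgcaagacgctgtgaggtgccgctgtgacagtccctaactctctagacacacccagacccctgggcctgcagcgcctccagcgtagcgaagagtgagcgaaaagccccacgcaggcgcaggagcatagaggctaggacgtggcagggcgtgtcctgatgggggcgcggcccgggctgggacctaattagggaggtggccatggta
Anxa2: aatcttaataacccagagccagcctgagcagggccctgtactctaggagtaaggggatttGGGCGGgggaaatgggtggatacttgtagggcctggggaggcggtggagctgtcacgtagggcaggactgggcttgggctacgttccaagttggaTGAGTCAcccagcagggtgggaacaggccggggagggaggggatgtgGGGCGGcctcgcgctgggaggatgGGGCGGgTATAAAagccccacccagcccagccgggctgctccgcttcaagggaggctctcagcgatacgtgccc
S100a11: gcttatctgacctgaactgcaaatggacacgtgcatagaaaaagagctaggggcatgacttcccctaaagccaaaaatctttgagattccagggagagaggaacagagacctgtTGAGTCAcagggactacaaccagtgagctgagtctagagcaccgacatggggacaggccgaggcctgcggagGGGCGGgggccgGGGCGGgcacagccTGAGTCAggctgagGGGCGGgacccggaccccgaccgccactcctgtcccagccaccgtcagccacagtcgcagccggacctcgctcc
The Anxa5 window held none of these motifs. The Anxa2 window held 1 AP-1 match, 3 GC boxes and 1 TATA box, and the S100a11 window held 2 AP-1 matches and 3 GC boxes. The Anxa11 window, not shown, held 3 GC boxes and no AP-1 match. Of all 8 member windows, as some genes have more than 1, 2 held an AP-1 match, 6 a GC box and 1 a TATA box. The windows with a GC box were of 5 genes. Among them are 2 overlapping windows of Anxa7, which share 1 GC box, and Anxa7 has no value here. Among all 32851 windows of this length 7.81% held an AP-1 match, 35.7% a GC box and 13.6% a TATA box. The letters GGTCTCTAA, a motif associated with PRDM14 binding, were in 0.256% of all windows and in none of the member windows. The ratio of observed to expected CpG sites was 0.59 for Anxa5, 0.46 for Anxa2 and 0.53 for S100a11, against a median of 0.38 over all windows. These matches describe the letters only.

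Each probe gave an average bead signal on a linear scale, and a detection p-value that compares it with negative control beads. Between 31.7% and 32.6% of probes were detected (p under 0.01) on the overexpression arrays and between 31.1% and 32.0% on the control arrays. Background differed between the groups: the median signal of never-detected probes was 73.3 to 81.2 in overexpressing cells, against 59.6 to 62.8 in control cells. Signals were therefore background-corrected, quantile-normalized and put on a log2 scale before comparison, and differences are overexpression minus control on that scale. The labels held for the targeted gene, as the brighter Prdm14 probe had signals of 14910, 10750 and 11020 on the overexpression arrays, against 800.7, 672.6 and 854.9 on the control arrays. All 9 ES cell marker genes, among them Pou5f1, Nanog and Esrrb, were detected on every array. None of them passed the threshold in the limma fit below, while 3 had an unadjusted p under 0.05 in it, beside 24.2% of all tested genes. Without overlap between groups 4 were higher and 1 lower, against 29.9% of all genes in either direction. Their normalized intensities summed to between 75390 and 76590 with Prdm14 overexpression and between 70640 and 73690 with control vector, ranges that did not overlap.

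The 6 measured annexins were all lower in level in overexpressing cells than in control cells on the normalized scale, by amounts that ranged widely. Anxa3 and Anxa5 fell to 38.5% and 44.3% of their control level. For Anxa2, Anxa4, Anxa6 and Anxa11 the overexpressing cells had 69.8% to 83.9% of the control level. Of the S100 genes, S100a11 was at 82.9% and S100a10 at 103%. In bulk RNA, fewer cells of a type and less RNA per cell cannot be told apart. In a limma fit over all tested probes 2 of the 8 member genes, Anxa3 and Anxa5, passed an adjusted p of 0.01 with lower values, and none with higher values. In that fit 3.50% of all tested probes passed in either direction, and 2.50% of all tested genes passed with lower values and 1.50% with higher ones. The median log2 difference of the 8 genes was -0.38, beside -0.002 over all tested genes. The difference was below 0 for 7 of the 8, as for 50.3% of all genes, and it was under -1 for 2 of the 8, as for 1.43% of all genes. As the comparison itself chose the family, nothing is read from these counts.

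**Figure D1:**
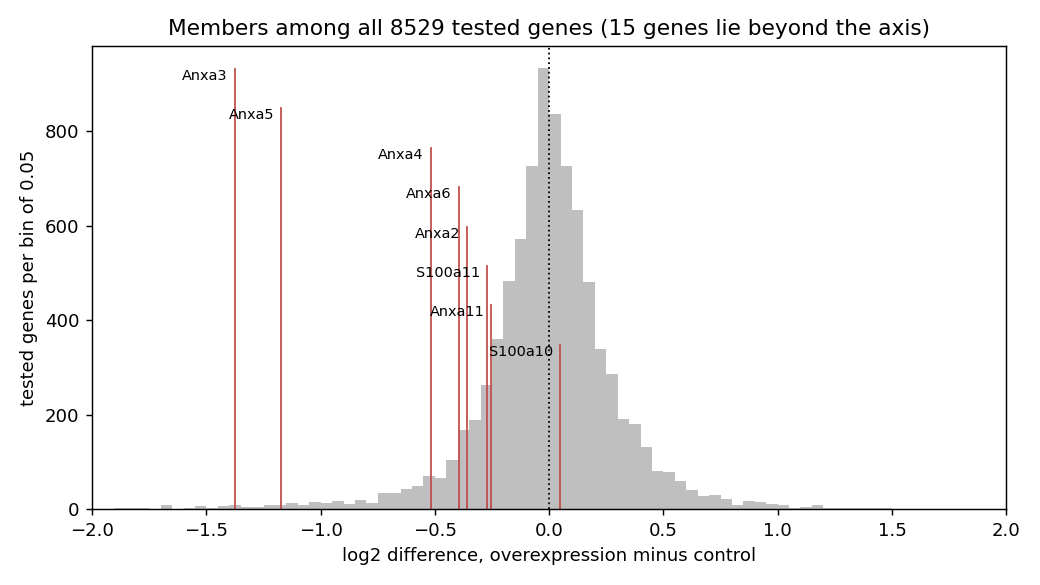
Histogram of the log2 difference (overexpression minus control, x axis) over 8529 tested genes, counted in bins of 0.05 (y axis), with a red line for each of the 8 member genes and a dotted line at the median gene. Anxa3 and Anxa5 lie in the lower tail, a group of 5 genes lies between -0.52 and -0.25, and S100a10 lies at 0.05.

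Anxa3, known from neutrophils as a protein of granule membranes, had the deepest decrease. Its brighter probe (ILMN_1241171, chromosome 5) gave signals of 324.8, 255.2 and 254.7 on the overexpression arrays, against 378.2, 614.4 and 562 on the control arrays. The groups did not overlap even before background was removed, and the control arrays spread more than the overexpression arrays. On the normalized scale it averaged 7.61 ± 0.10 in overexpressing cells and 8.99 ± 0.35 in control cells (SD, n = 3 each), a log2 difference of -1.38 ± 0.17 (SE). The other probe (ILMN_3135781) gave 229.3, 212.2 and 200.1 on the overexpression arrays and 334, 505 and 467.4 on the control arrays. Its difference was -1.60 ± 0.17, or 3.03-fold lower against 2.60-fold for the brighter probe. Both probes placed control array 1 below the other 2 control arrays, with r = 0.991 over the 6 arrays and 0.892 after the group means were removed, and they target 1 gene, so they are not separate evidence.

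Anxa5, which binds phosphatidylserine and is used as a probe of dying cells, also fell. Its probe (ILMN_2680142, chromosome 3) gave signals of 181.5, 169.7 and 143.8 on the overexpression arrays and 214, 222.4 and 282.7 on the control arrays. The groups did not overlap. Of the member probes Anxa5 had the highest single detection p, 0.00427, although Anxa4 was dimmer on the control arrays. Normalized values averaged 6.55 ± 0.30 with Prdm14 overexpression and 7.73 ± 0.12 in control cells (SD, n = 3 each), a log2 difference of -1.17 ± 0.15 (SE), or 2.26-fold lower. With the array's median signal of undetected probes taken off, the signals were 100, 96.4 and 70.2 on the overexpression arrays, against 154, 161 and 220 on the control arrays. The size of its difference moved with the processing. It was -0.83 without background correction, and -0.50 in the deposited normalized values set to their matching arrays, which differ in more than the background step.

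Anxa2, which links membranes to actin, is the annexin that pairs with S100a10, also called p11, an S100 protein that has lost its calcium binding. The Anxa2 probe (ILMN_2657175, chromosome 9) gave signals of 4468, 3338 and 3535 on the overexpression arrays and 3916, 4015 and 4524 on the control arrays. These overlapped, with overexpression array 1 close to the brightest control array. After normalization they did not, with 11.75 ± 0.05 in overexpressing cells and 12.11 ± 0.06 in control cells (SD, n = 3 each) and a log2 difference of -0.36 ± 0.09 (SE), which did not pass the threshold.

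The S100a10 probe (ILMN_1256702, chromosome 3) gave signals of 911.5, 805 and 801.3 on the overexpression arrays, all above the 635.5, 698.8 and 702.3 of the control arrays. Raw signals ran higher on the overexpression arrays in general, with a median over all probes of 86.9 to 100, against 72.2 to 78.5 on the control arrays. Normalized values overlapped, at 9.37, 9.61 and 9.46 on the overexpression arrays, against 9.44, 9.52 and 9.34 on the control arrays. The difference was 0.05 ± 0.10 (SE), with a 95% interval from -0.19 to 0.29. The Anxa2 difference was 0.40 log2 units below that of its partner, and the gap stayed between -0.49 and -0.32 under the alternatives of processing that kept the arrays in their groups. Arrays measure each gene against itself, so the ratio of the 2 transcripts is not known.

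**Figure D2:**
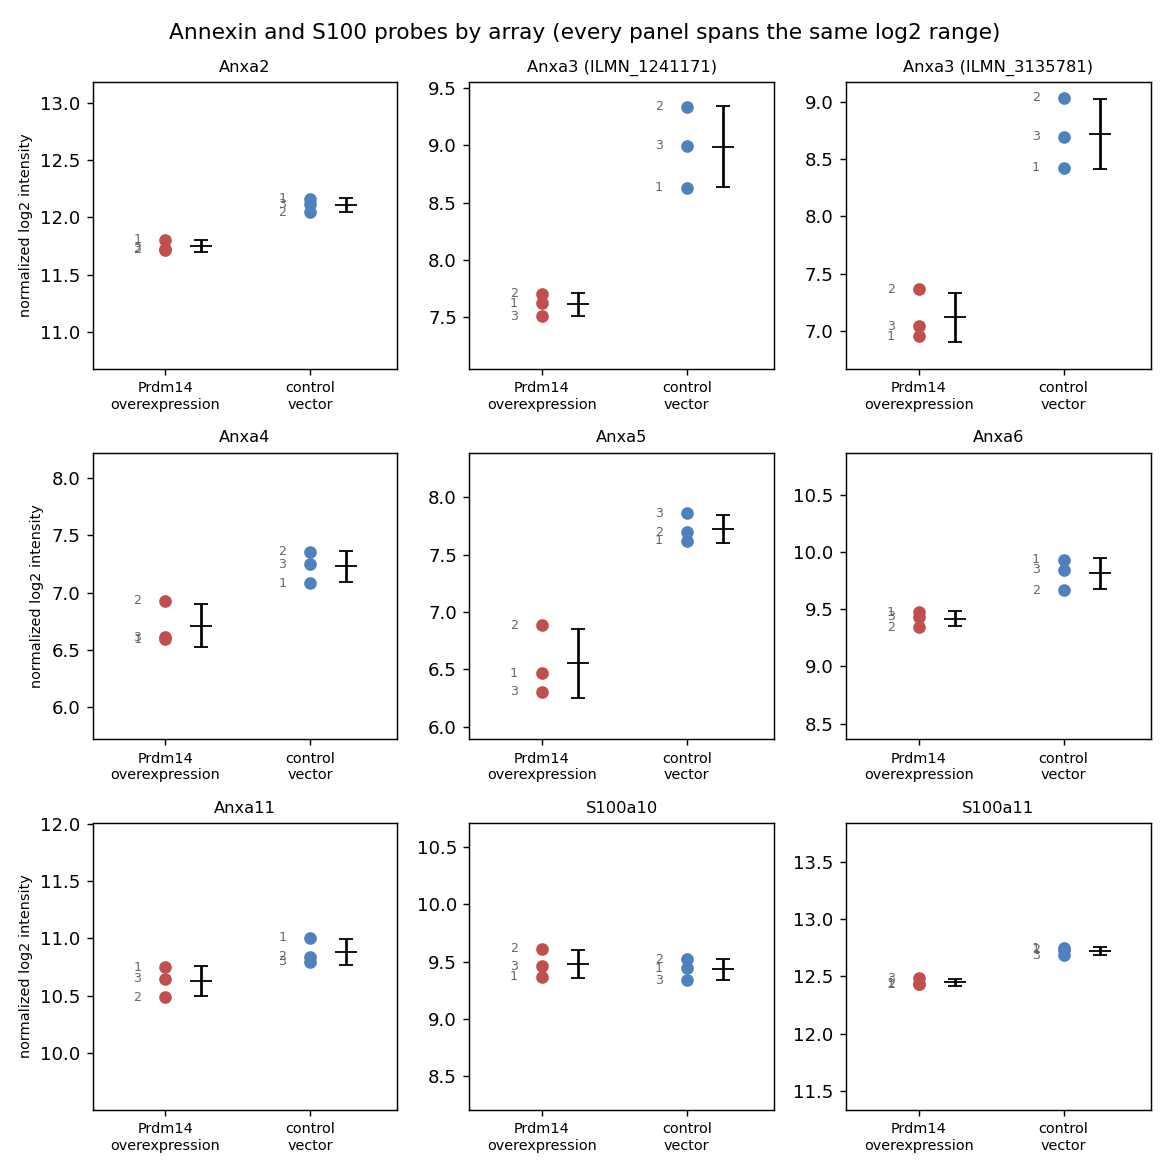
Normalized log2 intensity (y axis) of each member probe on the 3 overexpression arrays (left, red) and the 3 control arrays (right, blue), with array numbers beside the points and bars for the mean and SD. The groups are apart for the 8 probes other than S100a10, widest for the 2 Anxa3 probes and Anxa5, and overlap for S100a10.

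S100a11, which binds the tail of Anxa1, is the direct neighbour of S100a10 among the protein-coding genes of that stretch of chromosome 3. Its probe (ILMN_2883392) gave signals of 6693, 5388 and 5844 on the overexpression arrays and 5900, 6482 and 6709 on the control arrays, which overlapped. Normalized values varied little within a group, at 12.45 ± 0.03 in overexpressing cells and 12.72 ± 0.03 in control cells (SD, n = 3 each). They differed by -0.27 ± 0.09 (SE) without overlap, and did not pass the threshold. Its partner Anxa1 was named by no probe here.

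The other annexins, Anxa4, Anxa6 and Anxa11, had smaller differences than Anxa3 and Anxa5. Anxa4, found at the apical membranes of secretory epithelia, gave dim signals of 192.3, 173 and 163.5 on the overexpression arrays and 163.4, 185.8 and 203.6 on the control arrays (ILMN_2935012, chromosome 6). These overlapped, and the normalized difference was -0.52 ± 0.13 (SE). Anxa6, an unusually large annexin with a duplicated core that scaffolds signalling proteins such as Ras GTPase activators, gave 969.5, 672.8 and 786.9 on the overexpression arrays and 859.8, 766.2 and 978.3 on the control arrays (ILMN_2878060, chromosome 11). Its normalized values stood apart, with a difference of -0.40 ± 0.10. Anxa11, which has a long tail and tethers RNA granules to lysosomes, gave 2206, 1430 and 1726 on the overexpression arrays and 1766, 1705 and 1840 on the control arrays (ILMN_3107156, chromosome 14). Raw signals overlapped fully, and the normalized values of 10.75, 10.48 and 10.65 in overexpressing cells lay just under the 11.01, 10.84 and 10.80 of control cells, a difference of -0.25 ± 0.11 with a 95% interval from -0.50 to -0.004. None of the 3 passed the threshold.

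Normalized values did not overlap between the groups for 7 of the 8 member genes, each lower in overexpressing cells, as was the case for 15.3% of all tested genes. Arrays with the same replicate number tended to deviate together from their group means in a check over all tested probes. This was weak for number 1 (r = 0.121, beside 0.39 and 0.324 for numbers 2 and 3). As the numbers may pair the arrays, each overexpression array was also set against the control array of the same number. All 3 such differences were below 0 for the 7 genes other than S100a10. This follows from groups that do not overlap, so the signs add nothing, and only the sizes are new. They were -1.01, -1.63 and -1.49 for the brighter Anxa3 probe and -1.16, -0.81 and -1.55 for Anxa5, so pair 1 had the smallest decrease for Anxa3 and pair 2 for Anxa5. For Anxa2 they were much alike, at -0.36, -0.33 and -0.39. For S100a10 they were -0.08, 0.09 and 0.12, with no common direction.

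Under median scaling in place of quantile normalization, the median of all tested genes moved from -0.002 to 0.11, and 59.0% of called genes were higher, against 37.5% with quantile normalization. The 7 lower members stayed below 0, with a member median of -0.28, or -0.39 relative to the median gene. The 2 member calls rest on small groups. Neither gene passed without overexpression array 1, where the brighter Anxa3 probe had an adjusted p of 0.0101 and Anxa5 0.0145 in limma, although the other Anxa3 probe did. Anxa5 also did not pass without control array 1 (0.0116) or control array 3 (0.0118). Neither passed when probes not above background were tested too, with limma adjusted p-values of 0.0206 and 0.0232. Anxa2 passed with trended, robust variances (0.00346) and in the deposited normalized values set to their matching arrays (0.00498).

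**Figure D3:**
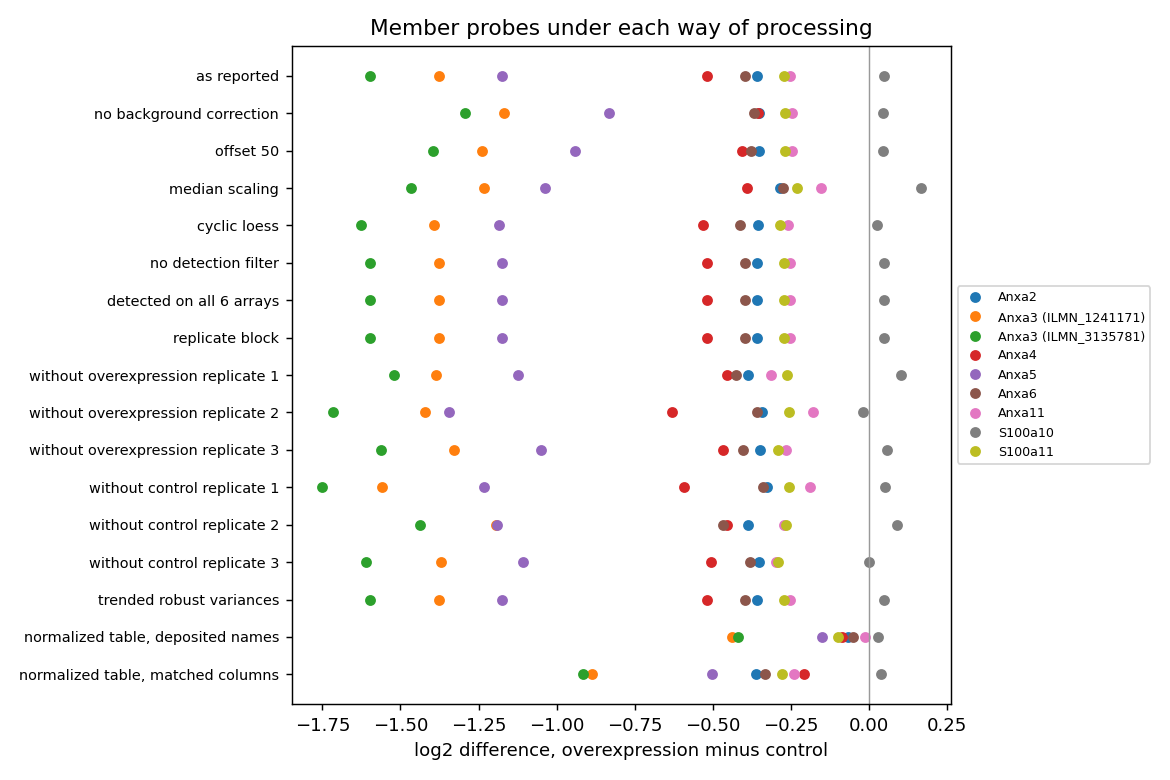
Log2 difference (overexpression minus control, x axis) of each member probe under each way of processing (y axis), with 1 colour for each probe. Anxa3 and Anxa5 stay at the left in the settings that keep the arrays in their groups, and S100a10 stays near 0, from -0.02 to 0.17.

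None of 5 other annexins (Anxa1, Anxa8, Anxa9, Anxa10 and Anxa13) was named by a probe here. Of 14 other S100 genes 5 were named and 3 tested, and 0 passed the limma threshold, with 0 at an unadjusted p under 0.05, which 24.2% of all tested genes had. S100a6, which binds Anxa11, gave signals of 2028, 1701 and 1860 on the overexpression arrays and 1456, 1954 and 1444 on the control arrays, a normalized difference of -0.02 ± 0.15 (SE, limma adjusted p = 0.952). The differences of S100a13 and S100a14 were -0.11 ± 0.11 (0.610) and -0.02 ± 0.10 (0.933), and S100a14 was detected on 2 overexpression arrays and 1 control array. The probe of S100a1 was above background on 0 of 3 overexpression arrays and 1 of 3 control arrays, that of S100a16 on 1 of 3 overexpression arrays and 0 of 3 control arrays.

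Of 22 genes for annexin partners and membrane repair, 13 were tested, 4 of them lower and 3 higher without overlap between groups, against 29.9% of all genes in either direction. In limma 0 of the 13 passed, with 5 at an unadjusted p under 0.05, beside 24.2% of all tested genes. Their median difference was -0.10. The deepest were Hltf, a chromatin remodeller bound by the Anxa2 and S100a10 complex, at -0.49 ± 0.10 (SE, limma adjusted p = 0.0208), and Dysf (dysferlin), which patches torn membranes together with annexins, at -0.48 ± 0.10 (0.0194). Dlc1, which binds S100a10, differed by -0.36 ± 0.12 (0.113). Of the genes that went the other way, Capns1 and Plgrkt rose most, by 0.33 ± 0.10 (0.0973) and 0.31 ± 0.12 (0.143). Signals of Dysf were 270.3, 201.6 and 219.2 on the overexpression arrays and 236.2, 238.9 and 242.7 on the control arrays, overlapping before normalization and apart after it. The other Hltf probe differed by -0.32 ± 0.12 (0.154).

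**Figure D4:**
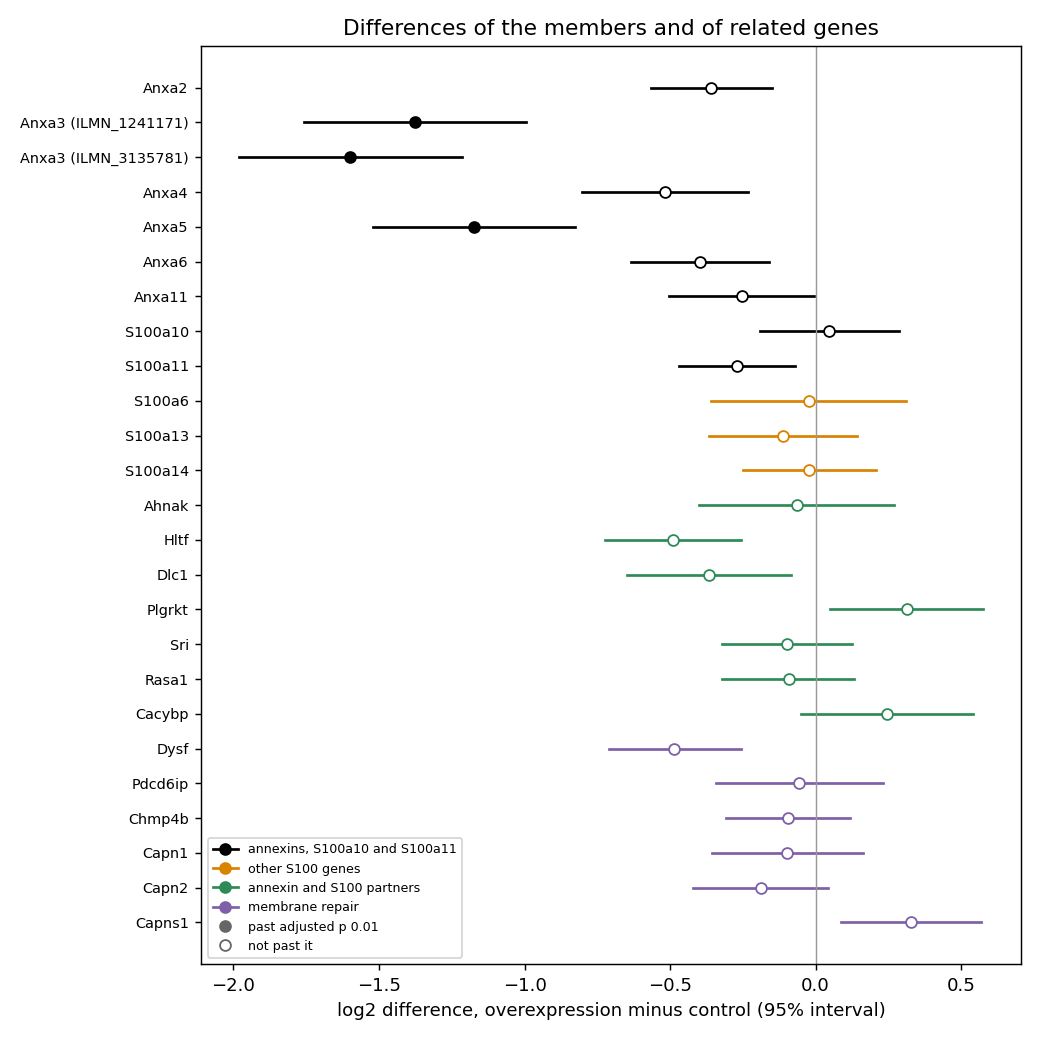
Log2 difference (overexpression minus control, x axis) with its 95% interval for the member probes (black), other S100 genes (orange), annexin and S100 partners (green) and membrane repair genes (purple), 1 row each. Filled points, past an adjusted p of 0.01, are the 2 Anxa3 probes and Anxa5, and the intervals of the S100 genes outside the family include 0.

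The 3 genes whose normalized values were most like the mean of the 8 member genes over the 6 arrays were Cyba, a subunit of the NADPH oxidase (Pearson r = 0.999), the HMG box gene Hmgxb4 (0.997) and the microtubule-associated gene Eml1 (0.995). These values share arrays and normalization, and the group difference is part of the likeness. The mean hides differences among the members. With the group means removed, r over the 6 arrays ran from -0.915 for Anxa3 with Anxa6 to 0.913 for Anxa2 with Anxa6. It was 0.806 for Anxa4 with Anxa5 and -0.902 for Anxa4 with Anxa11. These values include the extremes of all member pairs, and with so few arrays r can be large by chance. Signs among the annexins split by brightness. They were positive among the brighter Anxa2, Anxa6 and Anxa11 and among the dimmer Anxa3, Anxa4 and Anxa5, and negative between these sets. Whether members differed within groups beyond array or normalization noise was not tested. The differences of Cyba, Hmgxb4 and Eml1 were -0.61 ± 0.09 (SE, limma adjusted p = 0.00456), -1.46 ± 0.09 (0.000108) and -0.45 ± 0.09 (0.0176). As the group difference took part in the choice of these 3 genes, their p-values cannot be read as tests.

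Annexins are abundant in fibroblasts and in endoderm, so markers of such cells were read from the same arrays. Of 10 fibroblast genes 3 were named, all with a probe past the filter, while collagen genes such as Col1a1 were named by no probe here. Their summed normalized intensity was 532.2 to 658.6 with Prdm14 overexpression and 527.9 to 706.3 with control vector. Fbln2 and Acta2, both in this sum, went in opposite directions, so the sum does not show the amount of such cells. The matrix gene Fbln2 rose by 0.89 ± 0.14 (SE, limma adjusted p = 0.00563). Acta2, a smooth muscle actin, had signals of 84.8, 72.9 and 87.1 on the overexpression arrays, none above background, and 249.7, 166.9 and 313 on the control arrays. Its probe (ILMN_2693895) passed the filter through the control arrays alone, so it is given without a test, and the other 2 Acta2 probes were too dim to be tested. Of 15 primitive endoderm genes 7 were tested and 0 passed in limma, with 4 at an unadjusted p under 0.05, beside 24.2% of all tested genes. Their sum was 6382 to 6890 with Prdm14 overexpression and 6058 to 6489 with control vector, and single genes differed in direction. The laminin gene Lama1 had signals of 510.2, 513.2 and 575 on the overexpression arrays, all below the 625.5, 918 and 960.1 of the control arrays, and differed by -0.98 ± 0.18 (limma adjusted p = 0.0118). The collagen genes Col4a1 and Col4a2 differed by 0.44 ± 0.10 (0.0254) and 0.66 ± 0.17 (0.0484). These 3 were chosen after their values were seen. Of the other tested genes of the list, Sox7 differed by 0.38 ± 0.16 (limma adjusted p = 0.201), Sparc by 0.17, Lamc1 by -0.004 and Amn by -0.19. Gata6 and Dab2 of that list were above background on too few arrays to be tested, and Sox17, Gata4 and Foxa2 were named by no probe here. The part of such cells in the annexin values was not tested.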

How the data were processed

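Total RNA of mouse ES cells, 3 samples with Prdm14 overexpression and 3 with control vector, was labelled with biotin and hybridised to Mouse WG-6 BeadChips. The authors deposited average bead signal intensity per probe, without background subtraction or normalization, with a detection p-value beside each, and a table of normalized log2 values for 15944 probes, made with lumi per the labels (version not given). Of the 6 columns of normalized values, 4 correlated best with a signal array other than the one named, 2 of them in the other group, so that table served only as an alternative.

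The neqc function (limma 3.58.1, R 4.3.3) inferred background from the detection p-values, added an offset of 16, normalized by quantiles and took log2. Tested were probes detected (p under 0.01) on 3 or more of the 6 arrays, by lmFit and eBayes, Benjamini-Hochberg over 14604 probes, threshold 0.01 as in the study's methods, and the procedure was tested on simulated data. A gene was represented by its brightest tested probe. Gene names came from the platform annotation (13778 probes with 1 symbol), updated through RefSeq. Same-numbered arrays correlated in their deviations from the group means (r = 0.121, 0.390 and 0.324), against -0.311 to 0.0582 for arrays of different number. The numbers may therefore pair them, weakly so for number 1. The main fit left pairing out, and the model with replicate block was an alternative. The members and gene lists were chosen with earlier results of these data known. Named were the members, tested S100 genes, the partner and repair genes past the threshold or among the 3 with the largest differences, and the 3 most similar genes. Capns1 and Plgrkt were added as the partner and repair genes that rose most. The number of arrays limits the precision.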

Additional observations from a re-analysis of the deposited data

How the results depend on the processing

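Across 15 alternatives that kept the arrays in their groups, the differences of the 7 lower member genes stayed below 0. S100a10 changed sign without overexpression array 2 (-0.019) and without control array 3 (-0.001), ranging from -0.019 to 0.103 with 1 array left out. The brighter Anxa3 probe ranged from -1.56 to -0.89, Anxa5 from -1.34 to -0.50 and Anxa2 from -0.39 to -0.28. The count of 2 called members went to 0 without the detection filter, and ranged from 0 to 2 with 1 array left out. The member median of -0.38 was -0.28 with median scaling, -0.31 in the normalized table with matched columns and -0.42 to -0.33 with 1 array left out. The count of called probes, 511, was 148 without the detection filter, which tests more probes, 857 with trended robust variances and 193 to 337 with 1 array left out and so fewer samples. In the normalized table under its deposited names, which puts 2 columns in the other group, 0 probes and 0 members passed and the member median was -0.078. With the replicate block, 657 probes passed, among the members Anxa3 and Anxa5, and it changed no call of a member. Other S100, partner and repair genes gave 0 calls under every alternative run. Without background correction the differences were smaller for Anxa3 (-1.17 and -1.29), Anxa4 (-0.36) and Anxa5 (-0.83).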
